A study of Mus musculus with 4 samples.

Results

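The genes described here are 40 regulators of the cell division cycle: cyclins, cyclin-dependent kinases (CDKs), CDK inhibitors, pocket proteins, E2F factors with their DP partners, and the CDC25, WEE and SCF-SKP2 enzymes that act on CDKs or their inhibitors. They were chosen by name, for their function, and all 40 were found among the 50600 genes of the deposited tables, of which 21764 are protein-coding. RNA was measured by bulk RNA sequencing in 4 libraries of primary T cells from C57BL/6NJ mice, numbered by the labels as biological replicates 1 to 4 of 1 group. Per the file headers, all 4 samples were activated cells taken in bulk at 72 h and named mmTh0, and the name of the linked culture protocol refers to CD4+ T-cell differentiation. No untreated, resting or second group was given, so the values are levels and their spread, not responses to activation. Age was unknown and sex was not collected.

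In the textbook account, D-type cyclins with CDK4 or CDK6 and then cyclin E with CDK2 phosphorylate the retinoblastoma family (the pocket proteins), which releases E2F factors to switch on genes for DNA replication. Cyclin A with CDK2 and cyclin B with CDK1 then carry cells through S phase and mitosis, while INK4 and Cip/Kip proteins restrain the kinases. T cells leave quiescence and divide rapidly once their antigen receptor and costimulatory receptors are engaged, and D-type cyclins link those signals to the cycle.

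Library totals ran from 49613182 to 94222415 counts, and all pairs of libraries differed beyond counting noise (chi-square per degree of freedom from 18.9 to 41.4), so no library was treated as deposited again. The labels gave all 4 libraries 1 donor identifier, yet Xist, expressed from an inactive X chromosome, had 332, 150, 0.877 and 0.392 TPM (counts scaled by gene length and library total) in replicates 1 to 4, and the Y-linked Ddx3y had 0.0344, 0.0834, 49.0 and 45.8 TPM. Replicates 1 and 2 thus stood apart from replicates 3 and 4 on both genes, so the 4 libraries did not all come from 1 animal. All 6 T-cell marker genes were detected and summed to between 5159 and 5518 TPM. Defining markers of other blood lineages were at or near 0: the 3 neutrophil markers S100a8, S100a9 and Elane had 0 counts throughout, the 4 B-cell markers summed to 1.41 to 2.38 TPM, the 4 macrophage markers to 0.114 to 1.11 TPM with C1qa at 0, and the NK markers to 0.0201 to 0.483 TPM. The erythroid markers summed to 0.0335 to 0.226 TPM with Hbb-bs at 0, the thymocyte markers to at most 0.0389 TPM with Rag2 at 0, and the gamma-delta markers to 0.571 to 0.855 TPM with Tcrg-C1 at 0. Of the CD8 genes, Cd8b1 was detected at 15.8 ± 2.38 TPM (SD, n = 4), whereas Cd8a was at 0.190 ± 0.0957 TPM.

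Promoter windows were searched for letters known as sites of E2F factors and of other cell-cycle regulators. RefSeq windows on GRCm38.p6, the same build as the files, were found for 29 of the 40 genes, with 37 windows in all, each running from 250 bases before to 50 after the start site. Windows of Ccnd1, Ccnd2, Ccne2, Ccna2, Cdkn1c, Rb1, E2f4, E2f5, Cdc25c, Wee1 and Pkmyt1 were not used here. The E2F letters searched were TTTCCCGC, TTTGGCGC, TTTCGCGC and TTTGCCGC on both strands. They occurred in 10 of the 37 windows (27.0%), against 744 of all 32851 windows (2.26%), and belonged to 9 genes: Cdc25a, Cdk1, Cdk2, Cdkn2a, E2f2, E2f3, E2f7, Rbl1 and Tfdp1. A match is a description of the letters and not evidence of binding. Shown first are windows with an E2F match for a pocket protein, an E2F, its DP partner, a CDC25 phosphatase, the mitotic kinase and an inhibitor that was not detected, each with 100 bases, 5′ to 3′ on the gene's strand, and with only the E2F letters (or their reverse complement) in capitals.
Rbl1, chr2:157204535-157204634, minus strand: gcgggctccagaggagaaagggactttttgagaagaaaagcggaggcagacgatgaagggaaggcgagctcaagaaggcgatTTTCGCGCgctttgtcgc
E2f3, chr13:29986064-29986163, minus strand: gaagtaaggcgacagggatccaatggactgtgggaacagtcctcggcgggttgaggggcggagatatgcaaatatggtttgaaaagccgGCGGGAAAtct
Tfdp1, chr8:13338651-13338750, plus strand: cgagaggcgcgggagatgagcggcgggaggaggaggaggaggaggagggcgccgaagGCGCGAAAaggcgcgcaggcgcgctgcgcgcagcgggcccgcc
Cdc25a, chr9:109875466-109875565, plus strand: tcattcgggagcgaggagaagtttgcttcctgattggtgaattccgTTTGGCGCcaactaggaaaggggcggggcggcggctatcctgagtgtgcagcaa
Cdk1, chr10:69352990-69353089, minus strand: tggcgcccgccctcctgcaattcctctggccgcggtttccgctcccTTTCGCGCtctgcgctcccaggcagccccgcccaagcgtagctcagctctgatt
Cdkn2a, chr4:89294665-89294764, minus strand: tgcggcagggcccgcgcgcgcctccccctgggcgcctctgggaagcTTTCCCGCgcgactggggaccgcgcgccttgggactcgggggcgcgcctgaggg

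Distances from the start site of the first base of these matches were -18 in Rbl1, -11 in E2f3, -43 in Tfdp1, -67 in Cdc25a, -131 in Cdk1 and -99 in Cdkn2a. Mitotic genes are known for another promoter layout, with CCAAT boxes read by NF-Y and the CHR element, TTTGAA, read by the MuvB complex. CCAAT on either strand occurred in 20 of 37 windows (54.1%), against 37.4% of all windows, and TTTGAA in 9 of 37 (24.3%), against 17.9% of all windows. In these 37 windows no match of one motif overlapped a match of another. The B-type cyclin windows are shown because their CCAAT letters, in capitals here, recur at near-regular distances: -99 and -67 in Ccnb1, and -87, -54 and -21 in Ccnb2.
Ccnb1, chr13:100786518-100786617, minus strand: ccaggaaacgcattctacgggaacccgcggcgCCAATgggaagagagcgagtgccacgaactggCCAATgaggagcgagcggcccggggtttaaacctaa
Ccnb2, chr9:70421557-70421656, minus strand: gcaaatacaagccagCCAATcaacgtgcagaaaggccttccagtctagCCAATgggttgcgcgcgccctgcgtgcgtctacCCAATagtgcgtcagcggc

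Cdk1 held all 3 motifs, with CCAAT at -208, -80 and -48 and TTTGAA at -71 and -15 beside its E2F letters. A window of E2f3 also held all 3, with CCAAT at -145, -109 and -81, TTTGAA at -23 and E2F letters at -11. E2f2 held all 3 across its windows. Cks1b, which encodes a small CDK-binding subunit, held 4 CCAAT boxes and 2 TTTGAA matches and no E2F letters. Repeated CCAAT boxes were not particular to mitotic genes. Windows of Cdc25a, Cdkn1b, Cks2, E2f2, E2f3 and E2f7 also repeated them, in E2f7 at -46 and -14. E2f1 held none of the 3 motifs, which says only that these letters are not in this window. Cdkn2a held E2F letters in 1 of its 2 windows and was under the detection threshold, whereas Cdk4, the most abundant member, held none of the 3 motifs. Windows of the undetected Ccnd1 and Cdkn1c were not used, and whether the letters sort detected from undetected genes was not tested.

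**Figure D1:**
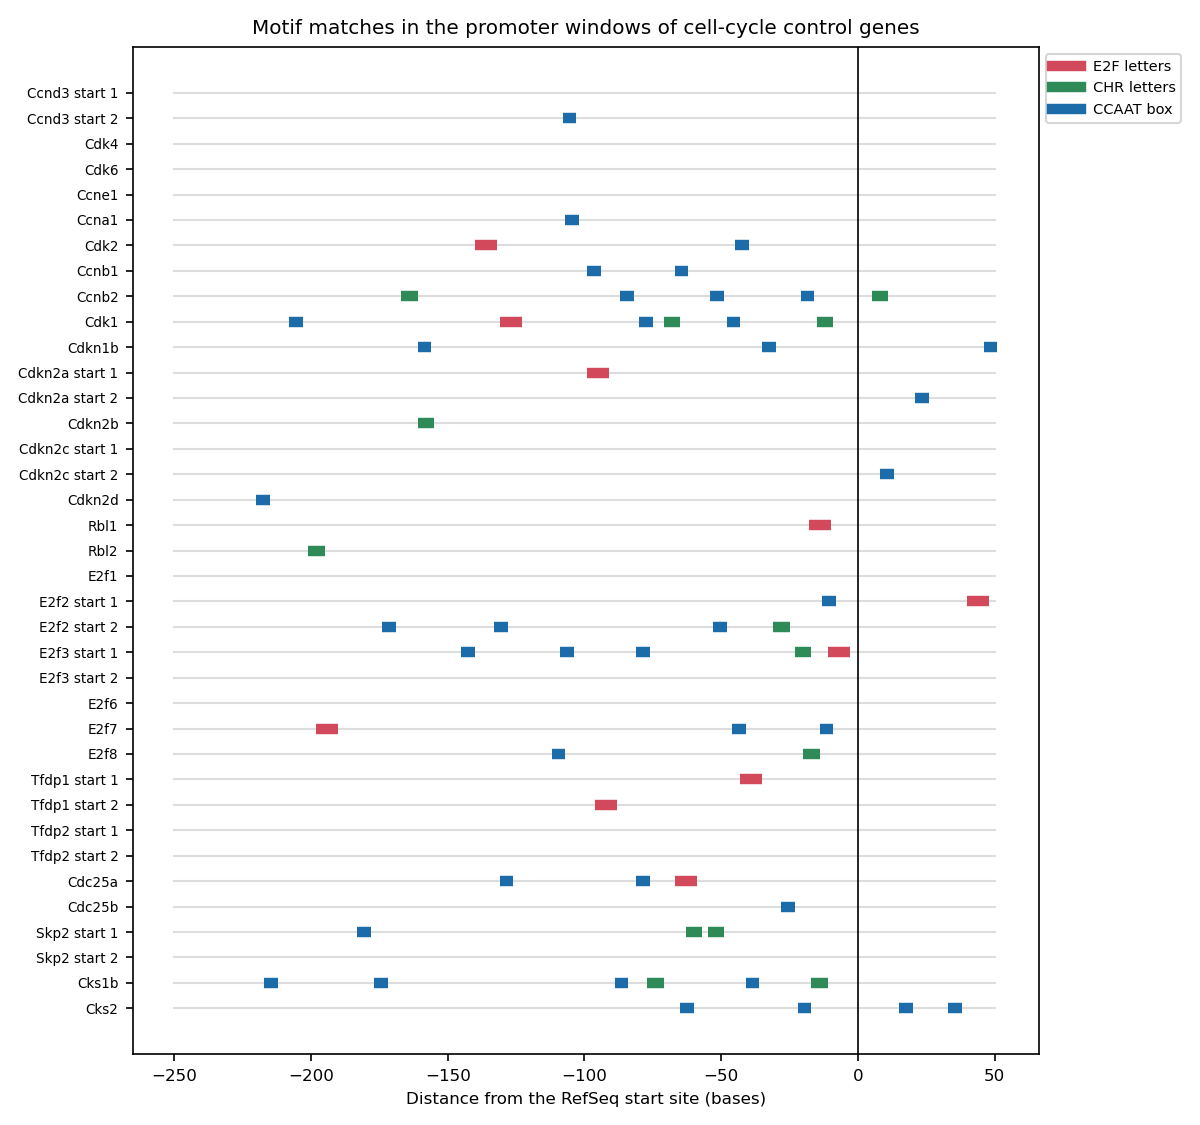
Matches of E2F letters, CHR letters and the CCAAT box in 37 promoter windows of 29 cell-cycle control genes, against distance from the RefSeq start site in bases; bars are drawn at the width of the match. E2F letters lie in 10 windows. More than 1 CCAAT box lies in windows of Ccnb1, Ccnb2, Cdk1, Cdc25a, Cdkn1b, Cks1b, Cks2, E2f2, E2f3 and E2f7.

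Nearly all of these regulators were transcribed. A gene counted as detected where all 4 libraries reached a TPM of 1, and 35 of 40 (87.5%) were detected, against 49.4% of all protein-coding genes. TPM scales counts by gene length, and levels set beside each other below use the exon length of the deposited gene models unless stated. On the length of the longest protein-coding transcript, 28 of the 40 means moved by more than their SD. The largest moves were in Ccnd3 (3.03-fold), Cdk2 (1.89-fold) and Cdc25a (1.61-fold). Part of each move was a scale common to all genes. Cdkn1b, Wee1 and Cks2, whose length was the same on both measures, fell to 0.731, 0.731 and 0.730 of their exon-length level. A common scale changes no order within a library. Unequal changes of length can, so orders between genes depend on this choice where stated. The median of the 35 detected genes was 57.6 TPM, against 34.8 TPM for all detected protein-coding genes, and 28 of the 35 lay above that median. Of the 35, 13 averaged over 100 TPM, 19 lay between 20 and 100 TPM, and 3 lay under 20 TPM. Their counts ran from 618 to 76962 per library. The 5 genes not detected were Ccnd1, Ccna1, Cdkn1c, Cdkn2a and Cdkn2b, and even the lowest library value of a detected gene, 11.2 TPM for E2f7, stood far above all 5. In bulk RNA, fewer cells expressing a gene and less RNA per cell cannot be told apart, which holds for every level given here.

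**Figure D2:**
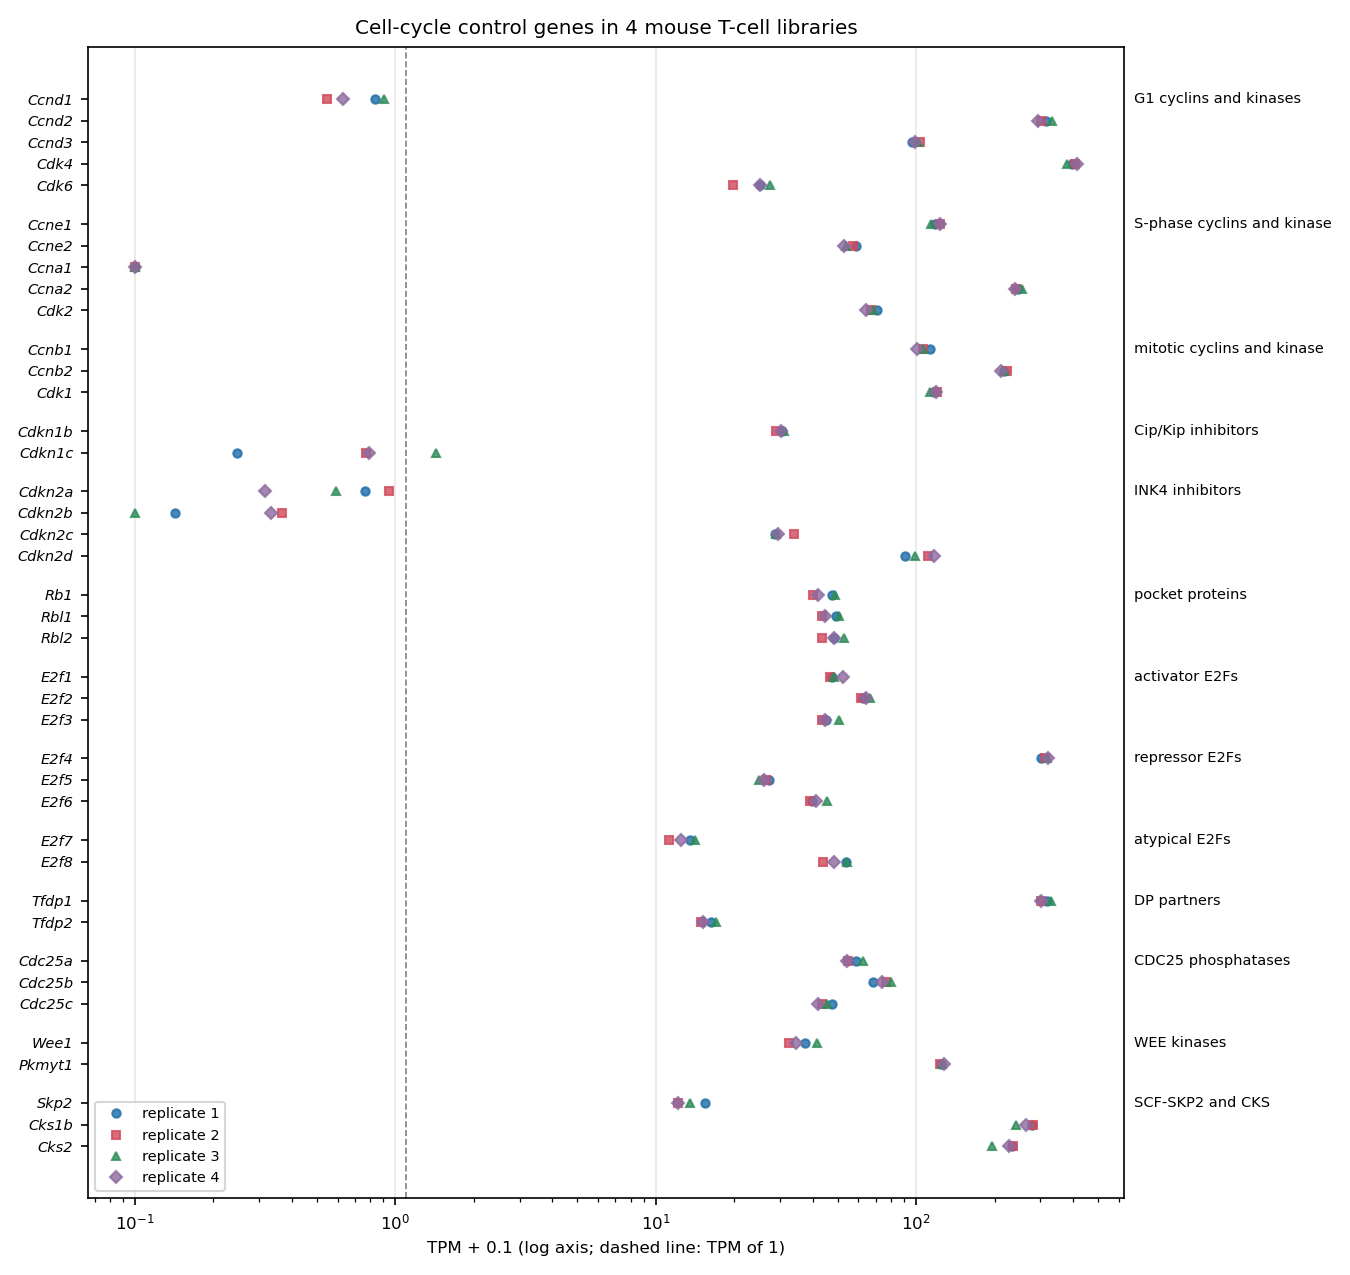
TPM plus 0.1 on a log axis for 40 cell-cycle control genes, 1 point per library, grouped by role; the dashed line marks a TPM of 1. The 35 detected genes form a band from 11.2 TPM upward with library points close together, and Ccnd1, Ccna1, Cdkn1c, Cdkn2a and Cdkn2b lie apart at the left.

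Among the G1 cyclins, Ccnd2 and Ccnd3 were detected and Ccnd1 was under the threshold. Ccnd2, a D-type cyclin induced by growth signals in lymphocytes, had 316, 302, 332 and 294 TPM in replicates 1 to 4. Ccnd3, the D-type cyclin needed for expansion of early T cells, had 96.2, 103, 102 and 98.9 TPM. Ccnd1, the D-type cyclin best known from epithelial and fibroblast cells, had 0.734, 0.447, 0.808 and 0.527 TPM, from 58, 34, 53 and 69 counts. The libraries lay close together for Ccnd2 and Ccnd3, and no library of Ccnd1 came near either. Ccnd2 made up 75.5 ± 1.08% (SD, n = 4) of the summed D-type cyclin level of 412 ± 17.4 TPM, Ccnd3 24.3 ± 1.11%, and Ccnd1 0.152 ± 0.0359%.

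How far Ccnd2 exceeded Ccnd3 depended on the length used. With the exon length of the deposited gene models, Ccnd2 minus Ccnd3 was 1.63 ± 0.09 on the log2(TPM + 1) scale, positive in 4 of 4 libraries. The gene model of Ccnd3 spans 8775 exonic bases, while its longest protein-coding transcript has 2113 bases, and on transcript length the difference was 0.15 and the Ccnd3 level 303 TPM. The Ccnd3 level also carries a counting limit, since 41.6% of its transcript is shared at 96.3% identity with the pseudogene Ccnd3-ps and reads placed in both copies may be missing. On transcript length the D-type shares were 52.6% for Ccnd2 and 47.3% for Ccnd3. Ccnd2 minus Ccnd1 was 7.59 ± 0.09 on the same scale, and 7.75 on transcript length. With 4 libraries the exact two-sided sign-flip test has 16 sign patterns and gives at best an adjusted p of 0.145 over the 22 pairs, so no pair compared in these data can pass a threshold of 0.05.

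Cdk4, a kinase partner of D-type cyclins, was the highest of all 40 genes at 396, 405, 379 and 414 TPM. Cdk6, its close relative, had 25.1, 19.7, 27.3 and 25.0 TPM. Every library of Cdk4 stood above every other member's mean, while Cdk6 was lowest in replicate 2. Cdk4 minus Cdk6 was 3.99 ± 0.23 on the log2(TPM + 1) scale (4 of 4 libraries), a TPM ratio of 16.7 ± 2.80. Of the summed level of the 4 cell-cycle kinases, 608 ± 14.2 TPM, Cdk4 made up 65.6 ± 0.97%, Cdk1 19.3 ± 0.20%, Cdk2 11.1 ± 0.62% and Cdk6 4.00 ± 0.59%. On transcript length the shares were 65.2% for Cdk4, 13.7% for Cdk1, 18.0% for Cdk2 and 3.05% for Cdk6, so Cdk2 then stood above Cdk1.

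Both E-type cyclins, which activate CDK2 at the start of S phase, were expressed. Ccne2 had 58.7, 57.3, 53.4 and 52.7 TPM and Ccne1 had 118, 123, 114 and 124 TPM. Ccne2 was lower than Ccne1 in every library, with a difference of -1.10 ± 0.09 log2, and their ranges did not overlap. Of the A-type cyclins, Ccna2, which serves S phase and mitosis in dividing somatic cells, had 245, 242, 255 and 240 TPM. Ccna1, whose main site is the male germ line, had 0 counts in all 4 libraries, which at 3 counts per library allows at most 0.117 TPM. Because Ccna1 was at 0, the Ccna2 minus Ccna1 difference of 7.95 ± 0.04 log2 is simply the level of Ccna2 on that scale. Cdk2, the kinase partner of both cyclin types, had 70.6, 66.8, 68.1 and 64.2 TPM, a narrow range with no library apart.

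The B-type cyclins and Cdk1 also varied little between libraries. Ccnb1, the main B-type cyclin of mitotic entry, had 112, 106, 106 and 100 TPM. Ccnb2, the other B-type cyclin, had 217, 224, 218 and 211 TPM. Ccnb1 was below Ccnb2 in every library (-1.03 ± 0.06 log2), and the gap was -0.27 on transcript length. The Ccnb1 level also carries a counting limit, since 51.9% of its transcript is shared at 95% identity or more with 4 pseudogenes and reads placed in several copies may be missing. Cdk1, the mitotic kinase, had 117, 120, 113 and 119 TPM. Cdk1 minus Cdk2 was 0.79 ± 0.08 log2 on exon length and -0.39 on transcript length, so the order of these kinases turns on the length used.

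**Figure D3:**
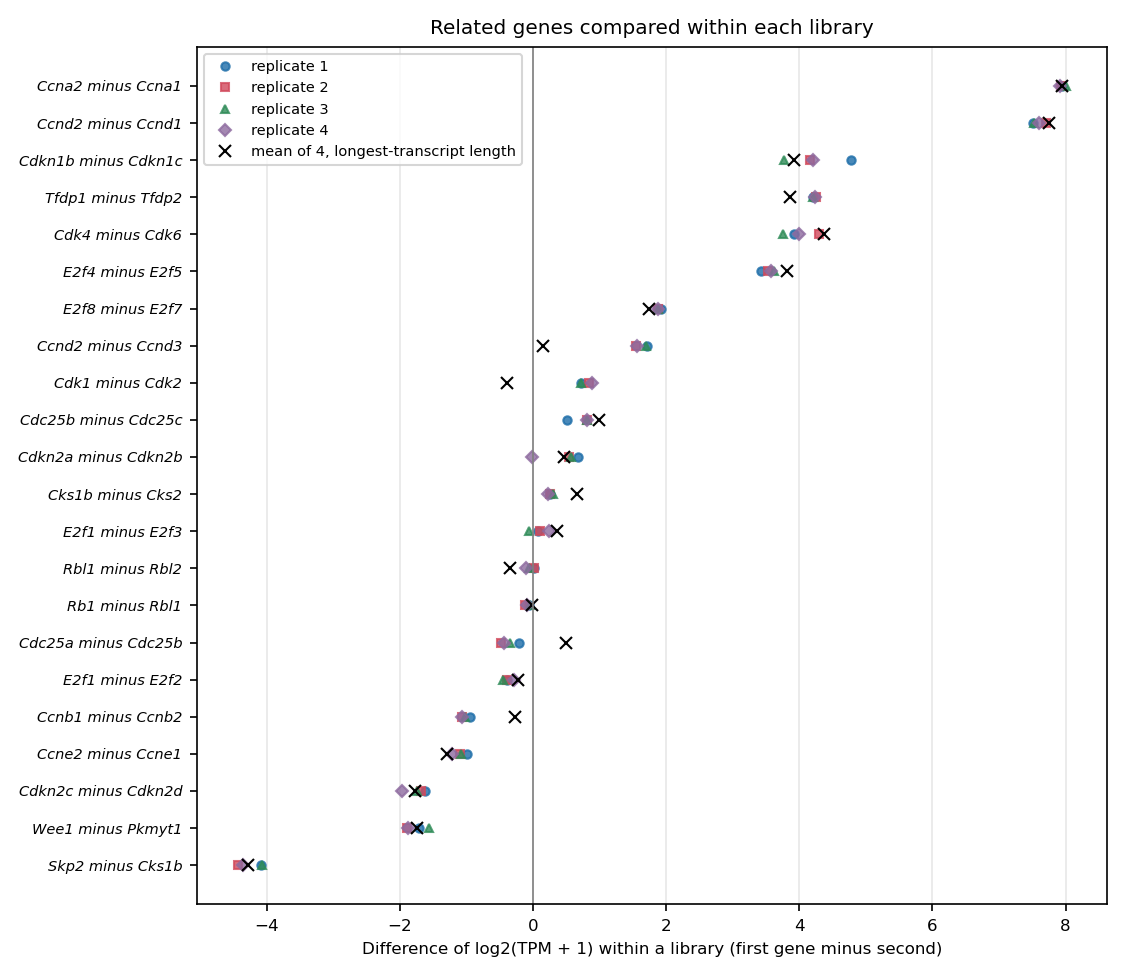
Difference of log2(TPM + 1) between related genes within each library, first gene minus second, with 1 coloured point per library and a cross for the mean on longest-transcript length. Of 22 pairs, 19 have 1 sign in all 4 libraries, and the cross lies on the other side of 0 for Cdk1 minus Cdk2 and Cdc25a minus Cdc25b.

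The inhibitors divided into detected and undetected genes within each family. Among the INK4 inhibitors, which bind CDK4 and CDK6, Cdkn2c had 28.6, 34.0, 28.9 and 29.3 TPM. Cdkn2d had 90.6, 111, 99.1 and 117 TPM. Cdkn2c was highest in replicate 2, where it stood apart from the other 3 libraries, while Cdkn2d was higher in replicates 2 and 4 than in 1 and 3. Cdkn2c minus Cdkn2d was -1.75 ± 0.15 log2, negative in 4 of 4 libraries, and Cdkn2d held 77.1 ± 1.88% of the INK4 sum of 135 ± 13.3 TPM.

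Cdkn2a and Cdkn2b, neighbours on the minus strand at chr4:89274471-89294653 and chr4:89306289-89311032 (mm10) and known as barriers to division in stressed or senescent cells, were near 0. Cdkn2a had 13, 16, 8 and 7 counts, which gave 0.661, 0.845, 0.490 and 0.215 TPM. Cdkn2b had 1, 6, 0 and 9 counts, at most 0.267 TPM. Cdkn2a was above Cdkn2b in 3 of 4 libraries, by 0.44 ± 0.31 log2 on average (exact sign-flip p = 0.25, adjusted 0.262). On transcript length the difference was 0.46 ± 0.28 log2, positive in 4 of 4 libraries. These values rest on at most 16 counts a library. Cdkn2a encodes INK4 and alternative-frame proteins from one locus, and counts per gene do not separate these transcripts.

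Of the Cip/Kip inhibitors, which bind cyclin-CDK2 complexes, Cdkn1b, a brake on exit from quiescence that is removed by SKP2, had 30.5, 28.8, 30.8 and 30.2 TPM. Its libraries differed by at most 1.07-fold. Cdkn1c, an imprinted inhibitor, had 0.146, 0.668, 1.34 and 0.688 TPM, from 5, 22, 38 and 39 counts. Replicate 1 was lowest and replicate 3 highest, and the values straddled the detection threshold. The NK marker Klrb1c had 1, 13, 18 and 23 counts and the macrophage marker Cd14 had 3, 14, 18 and 46. Both were also lowest in replicate 1, but the other markers of their lists did not rise in the same way. Ncr1 had 0, 5, 1 and 0 counts and Lyz2 had 0, 0, 1 and 0. Csf1r had 0, 0, 0 and 8 counts, and C1qa had 0 throughout. A part of NK cells or macrophages in the Cdkn1c values was not tested. Cdkn1b minus Cdkn1c was 4.23 ± 0.42 log2 (4 of 4 libraries), the widest spread between libraries of the 22 pairs.

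All 3 pocket proteins, which hold E2F factors inactive in their unphosphorylated form, had close levels on exon length. Rb1 had 47.3, 39.9, 48.7 and 41.9 TPM. Rbl1 had 49.1, 43.5, 50.6 and 44.6 TPM. Rbl2, best known for pairing with E2F4 in resting cells, had 48.3, 43.3, 52.8 and 48.1 TPM. Each was lowest in replicate 2 and highest in replicate 3. Rb1 minus Rbl1 was -0.08 ± 0.03 log2, with 1 sign in all libraries but a size close to 0. Rbl1 minus Rbl2 was -0.03 ± 0.06 log2, positive in 2 of 4 libraries (exact sign-flip p = 0.5), smaller than the spread between replicates. On transcript length Rb1 minus Rbl1 was -0.01 ± 0.03 log2 (positive in 2 of 4 libraries) and Rbl1 minus Rbl2 was -0.34 ± 0.06 log2 (negative in 4 of 4). The shares of the pocket protein sum were 31.8 ± 0.66% for Rb1, 33.7 ± 0.57% for Rbl1 and 34.5 ± 0.98% for Rbl2, against 30.3%, 30.6% and 39.0% on transcript length.

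E2f4, a repressor-type E2F that acts with pocket proteins, was the most abundant E2F, at 300.1, 313, 319 and 320.3 TPM. It made up 52.1 ± 1.19% of the summed level of the 8 E2F genes, 601 ± 17.9 TPM. E2f5, its closest relative, had 27.1, 26.3, 24.9 and 26.0 TPM, and E2f4 minus E2f5 was 3.54 ± 0.09 log2 in favour of E2f4 in every library. E2f6, a repressor that works without pocket proteins, averaged 41.3 ± 2.80 TPM.

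The activator E2Fs, which drive genes of S-phase entry, lay near each other. E2f1 had 47.3, 46.5, 48.3 and 52.5 TPM, E2f2 had 62.3, 61.5, 66.4 and 64.0 TPM, and E2f3 had 44.9, 43.3, 50.3 and 44.4 TPM. E2f1 was below E2f2 in every library (-0.38 ± 0.07 log2). E2f1 minus E2f3 was 0.09 ± 0.12 log2 and positive in 3 of 4 libraries (exact sign-flip p = 0.25, adjusted 0.262), which is within the replicate spread. On transcript length E2f1 minus E2f3 was 0.36 ± 0.12 log2 and positive in 4 of 4 libraries. The counts of E2f3 do not separate its isoforms, which start from different promoters.

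Of the atypical E2Fs, which bind DNA without a DP partner and repress E2F targets, E2f8 had 53.5, 43.7, 54.2 and 48.3 TPM. E2f7 had 13.5, 11.2, 14.0 and 12.4 TPM. Both were lowest in replicate 2 and highest in replicate 3, and their difference varied little: E2f8 minus E2f7 was 1.89 ± 0.02 log2, the smallest spread of the 22 pairs. The DP partners, which the other E2Fs need to bind DNA, were also uneven. Tfdp1 had 317, 301, 330.3 and 301 TPM and Tfdp2 had 16.2, 14.8, 16.9 and 15.0 TPM. Tfdp1 made up 95.2 ± 0.08% of their sum, and Tfdp1 minus Tfdp2 was 4.23 ± 0.02 log2. Of the Tfdp1 transcript, 48.9% matches the pseudogene Gm7390, so its level may be undercounted.

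CDC25 phosphatases activate CDKs, and WEE1 and PKMYT1 inhibit them by phosphorylation. Cdc25a, which acts from late G1 on, had 58.9, 54.4, 62.7 and 54.3 TPM. Cdc25b, a starter of mitosis, had 68.1, 76.5, 79.7 and 74.0 TPM. Cdc25a was below Cdc25b in every library, with a difference of -0.37 ± 0.12 log2 on exon length, but on transcript length the Cdc25a minus Cdc25b difference was 0.49. Cdc25c, the other mitotic member, averaged 44.5 ± 2.43 TPM, and Cdc25b minus Cdc25c was 0.73 ± 0.15 log2. Wee1, the nuclear CDK1 and CDK2 inhibitory kinase, had 37.3, 32.4, 41.6 and 34.3 TPM. Pkmyt1, its membrane-bound relative, had 124, 123, 125 and 128 TPM. Wee1 was highest in replicate 3, with a coefficient of variation of 11.0% that edgeR did not call (adjusted p = 1.00), and Pkmyt1 had the smallest coefficient of variation of the 35 detected genes, 1.76%. The difference of Wee1 minus Pkmyt1 was -1.76 ± 0.15 log2.

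Skp2, the substrate receptor of the ubiquitin ligase that removes the Cdkn1b product, was among the lowest detected members at 15.3, 12.1, 13.4 and 12.0 TPM. Cks1b, its cofactor for that substrate, had 277, 281, 242 and 265 TPM. Skp2 was far below Cks1b in every library, with a difference of -4.24 ± 0.18 log2. Cks2, the related CDK-binding subunit, had 234, 235, 196 and 227 TPM. Both CKS genes were lowest in replicate 3. Cks1b minus Cks2 was 0.26 ± 0.03 log2 (4 of 4 libraries), and 34.7% of the Cks2 transcript is shared with 3 pseudogenes, of which Gm15452 matches without a mismatch.

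In the order of mean level on exon length, Cdk4 stood first in every library, and E2f4, Tfdp1 and Ccnd2 came next at 313 ± 9.21, 312 ± 14.3 and 311 ± 16.8 TPM, with libraries that crossed each other. On transcript length Cdk4 was still first, at 461 TPM, and was followed by Ccnd2 at 338, Tfdp1 at 333, Ccnd3 at 303 and E2f4 at 281 TPM. Ccnd2 was above Cks1b in all 4 libraries. Of the 39 neighbouring pairs in the exon-length order of 40 genes, 16 kept their order in all 4 libraries and 22 crossed in at least 1. The remaining 1, Cdkn2b and Ccna1, tied at 0 in replicate 3. Crossing neighbours included Cks1b and Ccna2, Cks2 and Ccnb2, Pkmyt1 and Ccne1, the run of Ccnb1, Cdkn2d and Ccnd3, and the run of E2f8, E2f1, Rbl2 and Rbl1. The gap from E2f7, the lowest detected gene, down to Cdkn1c was kept in every library.

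Levels differed little between libraries. The coefficient of variation had a median of 5.47% over the 35 detected genes and a range of 1.76 to 13.2%. Its median over all detected protein-coding genes was 7.94%. These sets were not matched for level (median 57.6 against 34.8 TPM), so the medians do not show members steadier than genes of like level. The ratio of highest to lowest library ran from 1.04 for Pkmyt1 to 1.38 for Cdk6, and 27 of 35 stayed under 1.2-fold. In edgeR's test of variation beyond that of genes of like abundance, 36 members had enough counts, the exceptions being Ccna1, Cdkn1c, Cdkn2a and Cdkn2b. With the Benjamini-Hochberg adjusted p held under 0.05, edgeR called 0 of 36, against 94 of 13681 genes (0.687%). Before adjustment 1 member had a p under 0.05, 2.78% of those tested, against 7.01% of all genes, and DESeq2 marked 0 members as dispersion outliers. That member was Cdkn2d (edgeR, Benjamini-Hochberg adjusted p = 0.550). In simulated counts, genes drawn at random from all genes tested were raised in some of the libraries. The same test recovered 36% of genes changed 1.5-fold and 96% of those changed 4-fold. In genes at large, variation of 1.5-fold could thus go uncalled. These rates cover genes of all abundances and were not measured for the members, of which all 35 detected stayed under 1.5-fold. The labels give separate biological replicates but 1 donor identifier, so the p-values measure only the spread between these samples. Xist and Ddx3y differed between these samples, and a part of sex in their spread was not tested.

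**Figure D4:**
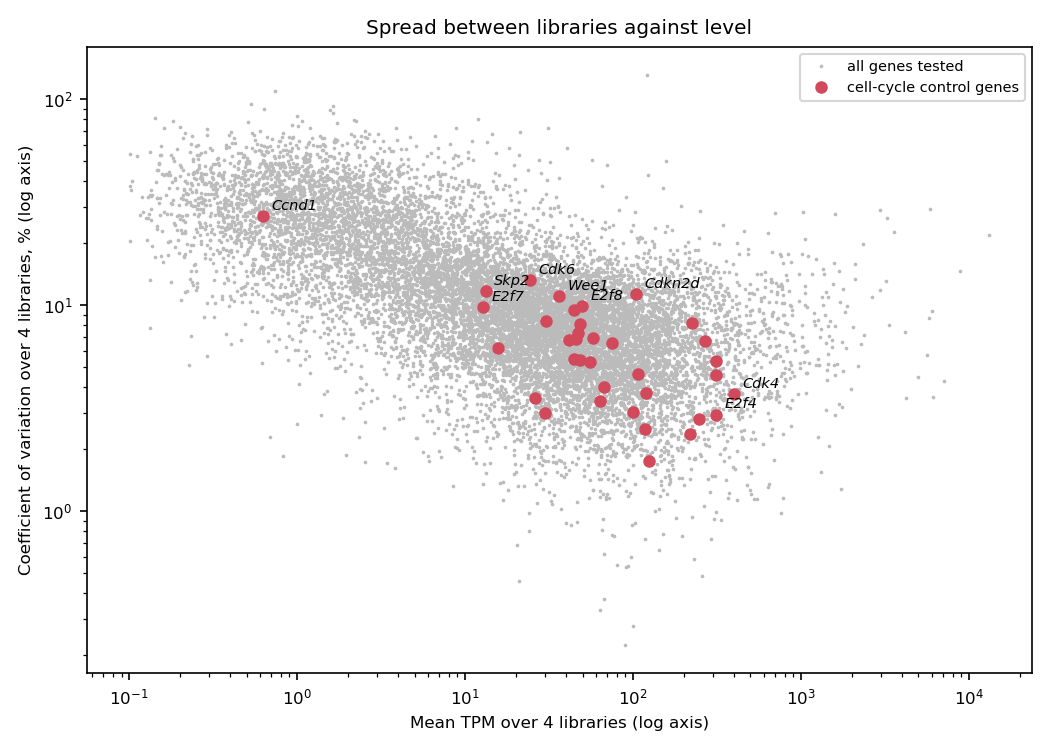
Coefficient of variation over 4 libraries in % against mean TPM, both on log axes, with grey points for all genes tested in edgeR and red points for the 36 cell-cycle control genes among them. Ccnd1 lies at low level and high spread with other low genes, and the detected members range from 1.76% for Pkmyt1 to 13.2% for Cdk6.

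The difference between replicates 2 and 3 ran with gene length, though edgeR called no member variable. This pair had the largest chi-square per degree of freedom (41.4), with replicates 1 and 4 close behind (41.3). Replicates 2 and 3 were the only pair compared by length here. Whether other pairs differ by length was not examined. Of the 35 detected genes, 17 were highest in replicate 3 and 15 were lowest in replicate 2. Of 12 members with at least 5000 exonic bases, 11 were lower in replicate 2 than in replicate 3, the exception being Ccnd3, while of 23 shorter members 13 were. The same split was seen in all protein-coding genes, where 89.2% of 4280 long genes and 55.7% of 6774 shorter genes were lower in replicate 2. The median difference of replicate 2 minus replicate 3 was -0.21 log2 in long members and -0.03 in shorter ones, and the medians over all protein-coding genes were -0.21 and -0.03. With a length trend taken out of each library, the medians were -0.00052 for long and 0.04 for shorter members. By role, the median deviation of the members had a range between libraries of 0.30 log2 in the atypical E2Fs, 0.28 in the pocket proteins, 0.26 in the INK4 inhibitors and 0.22 in the SCF-SKP2 and CKS genes. Each of these medians rests on 2 or 3 genes and so swings more than a median over many, and no test of a difference between roles was made. On CPM with the length trend taken out, the range was 0.09 in the pocket proteins, 0.12 in the atypical E2Fs and 0.28 in the INK4 inhibitors. The range rose from 0.07 to 0.14 in both the G1 and the mitotic genes. In the S-phase genes it rose from 0.09 to 0.16. The range fell in the remaining roles, and over all members it was 0.06 both before and after. These changes mix the move from TPM to CPM with the removal of the trend. On CPM with the trend left in, the S-phase and mitotic ranges were already wider than on TPM, as given further below. What set replicates 2 and 3 apart by length was not tested.

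**Figure D5:**
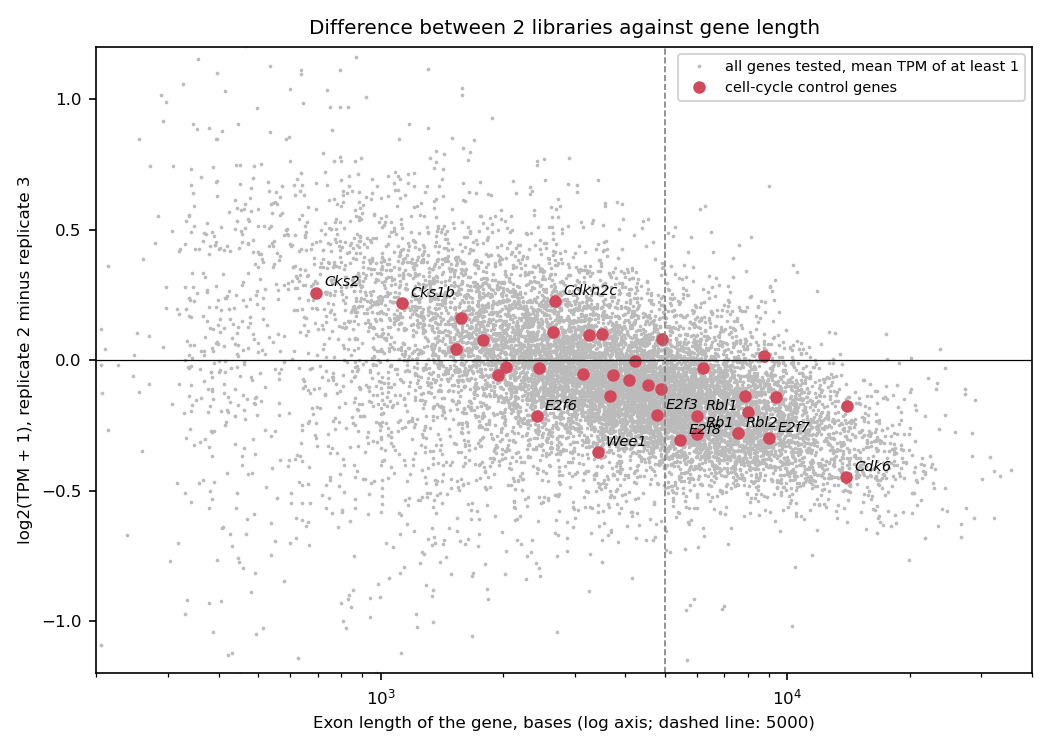
Difference of log2(TPM + 1) of replicate 2 minus replicate 3 against exonic length in bases on a log axis, with grey points for all genes tested that have a mean TPM of at least 1 and red points for cell-cycle control genes; the dashed line marks 5000 bases. Long members such as Cdk6, E2f7 and Rbl2 lie below 0 with the long genes in general, and the short Cks1b and Cks2 lie above 0.

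Genes that work with or downstream of these regulators were expressed too. All 26 G1/S target genes of E2F were detected, with a median of 99.5 TPM, led by the replication genes Mcm3, Rrm2 and Pcna. All 28 mitotic genes were detected, with a median of 103 TPM, led by the APC/C activator gene Cdc20 (450.5 ± 13.8 TPM), the topoisomerase gene Top2a (325 ± 31.7 TPM) and the mitotic kinase gene Plk1 (257 ± 15.8 TPM). All 7 measured genes of the DREAM and B-MYB-MuvB complexes were detected, led by the chromatin-binding Rbbp4 at 165 ± 2.43 TPM, with the mitotic activators Foxm1 at 69.3 ± 6.86 TPM and Mybl2 at 54.9 ± 3.21 TPM. All 15 measured SCF and APC/C genes were detected, led by the ubiquitin-conjugating Cdc34 at 334 ± 25.4 TPM, the adaptor Skp1a at 173 to 221 TPM and the F-box cyclin Ccnf at 156 ± 8.28 TPM. Of the remaining CDK inhibitors, the Cip/Kip gene Cdkn1a, at 985 ± 48.8 TPM, lay above all 40 members. Cdkn3, a phosphatase that acts on CDKs, had 32.8 ± 4.38 TPM. edgeR called 0 genes of these lists variable after adjustment, against 0.687% of all genes tested. Before adjustment, 2 of 28 mitotic genes (Cenpe and Cenpf) and 1 of 15 SCF and APC/C genes (Skp1a) had an edgeR p under 0.05. No gene of the other lists in this paragraph did, against 7.01% of all genes tested.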

How the data were processed

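Bulk RNA sequencing was measured in 4 mouse T-cell libraries. The deposited values are raw counts per gene, not pooled or normalized. Pairs of reads were assigned to exons with featureCounts 1.4.6-p4 and GENCODE mouse release 13 on the reverse strand, and no option for multimapping reads was set, per the file headers. The assembly is mm10 per the labels. Which aligner version was run is not given in the sources used here. The labels call the assay total RNA-seq, while the name of the linked library protocol refers to poly(A)+ RNA. Xist and Ddx3y show more than 1 animal, but nothing shows that all cultures came from separate animals.

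The exonic length column (in bases) was used with the counts to compute TPM here. Symbols came from GENCODE release 21, matched for 50376 of 50600 genes. A gene was detected where no library fell below a TPM of 1. Genes at 0 have a floor set at 3 counts in a library, and floors cover counting error only. Pairs were compared on log2(TPM + 1), a scale that understates differences of low genes. The exact two-sided sign-flip test was used, with Benjamini-Hochberg adjustment over 22 pairs.

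Variation between libraries was tested over 13681 genes in edgeR 4.0.16 (R 4.3.3) with TMM factors and filterByExpr, from the deviance of an intercept-only fit at the trended dispersion, referred to chi-square with 3 degrees of freedom. On simulated data the test was run on 13514 genes and gave 5 false calls. Role groups were followed by the median deviation of members whose mean TPM reached 1. Near-identical copies were matches of at least 200 bases at 95% identity (blastn 2.17.0). Python 3.11.15, numpy 2.4.6, pandas 2.3.3 and matplotlib 3.10.9 did the rest.

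The members, lists and pairs were chosen with earlier results of these data known. All 40 members are named, with the 3 genes of highest mean TPM in each further list. Genes named for an unadjusted p, Xist, Ddx3y and single markers were chosen with their values in view. Alternatives were detection at 0.5 TPM, at 5 TPM or from 10 counts up, TPM over protein-coding genes, a pseudocount of 0.1, log2 CPM with TMM factors, length offsets, DESeq2 1.42.0 size factors and outliers, a common dispersion, other count filters and leaving out each replicate. TPM from the longest protein-coding transcript was added after seeing the data.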

Additional observations from a re-analysis of the deposited data

Results flagged for a closer look

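In 59 genes, the members and the leading genes of the lists, each with 4 libraries, the library farthest from the others was compared by Dixon's ratio of gap to range. Chance alone marks about 1 in 20 such groups, and 2 genes were marked. Cdkn2c had 34.0 TPM in replicate 2, with 28.6, 28.9 and 29.3 TPM in replicates 1, 3 and 4 (ratio 0.875), and edgeR did not call it variable (adjusted p = 1.00). The mitotic kinase gene Plk1 had 280.4 TPM in replicate 3, with 248, 247 and 251 TPM in replicates 1, 2 and 4 (ratio 0.902).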

How the results depend on the processing

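Detection of members stood at 35 under thresholds of 0.5 and 5 TPM, TPM over protein-coding genes, longest-transcript length and without each replicate, and at 36 with a count of at least 10, which lets Ccnd1 in. No member was called variable by edgeR or DESeq2 under any setting (0 in each). Over all genes the edgeR count of 94 was 617 with a common dispersion, 43 as DESeq2 outliers and 38 to 87 with 1 replicate left out: 46 without replicate 1, 38 without replicate 2 and 46 without replicate 4. Fewer libraries enter those fits, and otherwise the cause was not tested. Of 22 pair differences, 2 changed sign, both with longest-transcript length: Cdk1 minus Cdk2 to -0.39 and Cdc25a minus Cdc25b to 0.49. Every other mean pair difference kept its sign. On transcript length Rbl1 minus Rbl2, E2f1 minus E2f3 and Cdkn2a minus Cdkn2b gained 1 sign in all 4 libraries and Rb1 minus Rbl1 lost it. Transcript length moved 28 of 40 mean levels by more than the replicate SD, and TPM over protein-coding genes moved 18. The protein-coding scale, and part of each transcript-length move, apply to all genes alike and change no order within a library. The range between libraries of role-group deviations (log2) on TMM-scaled CPM was 0.15 for S-phase genes, 0.14 for mitotic genes, 0.0483 for Cip/Kip inhibitors, 0.14 for repressor E2Fs, 0.0742 for DP partners, 0.0832 for WEE kinases and 0.33 for SCF-SKP2 and CKS. With length offsets it was 0.14 for G1 genes, 0.16 for S-phase genes, 0.14 for mitotic genes, 0.0438 for Cip/Kip inhibitors, 0.0859 for pocket proteins, 0.0689 for activator E2Fs and 0.12 for atypical E2Fs. With no filter on members it was 0.14 for G1 genes, 0.0351 for S-phase genes and 0.52 for Cip/Kip inhibitors, where Ccnd1, Ccna1 and Cdkn1c enter. No paired analysis was possible because the labels give 1 group. Depth limits the comparisons that involve Cdkn1c, Cdkn2a, Cdkn2b and Ccnd1, which rest on at most 69 counts a library.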

Other observations

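Relatives of these regulators that serve transcription and other processes were expressed as well. Of 15 other cyclin genes, 14 were detected, led by Ccng1 at 792 ± 32.1 TPM, Ccni at 208 ± 7.83 TPM and Ccnf at 156 ± 8.28 TPM (SD, n = 4). Ccng1 stood above all 40 members, and Ccnb3, the remaining B-type cyclin, had 0 counts in all libraries. Of 16 genes for other CDKs and the CDK-activating kinase, 13 were detected, with a median of 26.9 TPM over the list. They were led by Cdk11b at 118 ± 7.99 TPM, the elongation kinase gene Cdk9 at 94.2 ± 4.20 TPM and Cdk17 at 87.0 ± 6.61 TPM. Cdk14 and Cdk18 were under the detection threshold, and Cdk15 had 0 counts. Ccnt2, a cyclin partner of CDK9, was highest in replicate 1 at 22.9 TPM and had the smallest p of the cyclin list (edgeR, adjusted p = 0.547).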
